A study of Mus musculus with 214 samples.

Results

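Insig1, Hmgcs1, Idi1, Fdps, Fdft1, Sqle and Cyp51 are 7 genes that liver cells use to make cholesterol and to set how much they make. They were taken by symbol from 2 expression tables that share 18287 genes, and all 7 were found among the 18647 genes of the table for wild-type mice and among the 19540 of the table for Mgmt-/- mice. The values are bulk liver RNA measured by 3' digital gene expression, which counts reads at the 3' ends of transcripts. All mice were C57BL/6 and carried both mutation reporters, RaDR at Rosa26 and gpt delta, so that wild type (WT) stands for RaDR+/+;GPT+/+ and Mgmt-/- for Mgmt-/-;RaDR+/+;GPT+/+. The latter lack Mgmt in every tissue. N-nitrosodimethylamine (NDMA), an alkylating liver carcinogen, was injected intraperitoneally at 3.5 mg/kg on postnatal day 8 and at 7 mg/kg on postnatal day 15, and controls received saline. Livers of both sexes were collected 1, 2 and 5 days (Day1, Day2, Day5), 10 weeks (Week10) and 10 months (Month10) after the second dose. In that order of times the WT table held 26, 8, 8, 8 and 13 NDMA livers and 21, 8, 7, 8 and 10 saline livers. The Mgmt-/- table held 12, 8, 8, 8 and 13 NDMA livers and 12, 7, 8, 8 and 12 saline livers.

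Cholesterol is built from acetyl units through mevalonate, isoprenoids and squalene. Hmgcs1 makes the precursor of mevalonate. Idi1 and Fdps form the isoprenoid farnesyl diphosphate, Fdft1 (squalene synthase) joins farnesyl units into squalene, Sqle oxidises squalene, and Cyp51 demethylates lanosterol on the way to cholesterol. When sterols are plentiful, Insig proteins hold Scap and the transcription factor SREBP2 in the endoplasmic reticulum. When sterols are scarce, SREBP2 is released and switches on these enzymes and Insig1 itself, which closes a feedback loop. In rodents, milk supplies cholesterol to sucklings, hepatic synthesis is low before weaning, and it rises as pups change to solid food. Mgmt removes methyl groups that agents such as NDMA leave on guanine.

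Because the 7 genes share this control, the promoters that the reference tables held are printed here. RefSeq (GRCm38.p6) gave 4 of the 7, each running from 250 bases before the start to 50 bases after it: Insig1 (chr5:28071162-28071461, plus strand), Hmgcs1 (chr13:119690101-119690400, plus strand), Idi1 (chr13:8885356-8885655, plus strand) and Cyp51 (chr5:4104648-4104947, minus strand). Capitals mark each match to TCACNCCAC, the core of a sterol regulatory element, and to CCAAT, the box bound by NF-Y, a factor that works beside SREBP2. A CCAAT on the other strand reads as ATTGG. Both strands were searched and no matches overlapped.
Insig1 promoter: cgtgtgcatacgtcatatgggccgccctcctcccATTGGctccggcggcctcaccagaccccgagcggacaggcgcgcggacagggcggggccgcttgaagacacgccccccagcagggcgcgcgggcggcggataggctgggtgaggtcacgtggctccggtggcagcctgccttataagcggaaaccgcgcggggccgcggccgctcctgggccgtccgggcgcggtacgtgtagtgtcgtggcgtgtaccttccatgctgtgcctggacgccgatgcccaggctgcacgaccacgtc
Hmgcs1 promoter: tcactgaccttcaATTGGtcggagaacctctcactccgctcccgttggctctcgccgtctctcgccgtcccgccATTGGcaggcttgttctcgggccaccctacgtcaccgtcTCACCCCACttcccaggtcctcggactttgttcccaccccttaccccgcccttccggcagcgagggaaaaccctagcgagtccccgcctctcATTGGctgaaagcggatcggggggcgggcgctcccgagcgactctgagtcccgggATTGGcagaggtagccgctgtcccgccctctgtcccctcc
Idi1 promoter: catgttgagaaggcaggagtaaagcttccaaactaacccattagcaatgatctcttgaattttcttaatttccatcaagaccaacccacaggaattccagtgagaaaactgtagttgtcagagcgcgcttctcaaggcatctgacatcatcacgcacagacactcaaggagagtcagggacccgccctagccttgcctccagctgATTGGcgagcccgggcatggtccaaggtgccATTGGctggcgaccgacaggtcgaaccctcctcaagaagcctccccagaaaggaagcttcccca
Cyp51 promoter: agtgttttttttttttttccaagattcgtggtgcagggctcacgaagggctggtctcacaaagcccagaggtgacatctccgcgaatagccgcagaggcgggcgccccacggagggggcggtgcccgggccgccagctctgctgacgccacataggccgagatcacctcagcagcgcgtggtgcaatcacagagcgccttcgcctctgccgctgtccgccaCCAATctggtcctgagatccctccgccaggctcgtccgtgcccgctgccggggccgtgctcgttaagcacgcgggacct
The element core was found in Hmgcs1, from base 114 to base 122 of the window, and in no other of the 4. Exact matches alone were searched, so an element that departs from this core would have been missed. CCAAT was found 4 times in Hmgcs1, 2 times in Idi1 and 1 time each in Cyp51 and Insig1. Among all 32851 mouse promoter windows of this length, 1.24% held the element core, 37.4% held CCAAT and 0.441% held both. The genes whose promoters are not shown lie at chr3:89093588-89101959 on the minus strand (Fdps), chr14:63145150-63179578 on the minus strand (Fdft1) and chr15:59315077-59331192 on the plus strand (Sqle) in the GRCm38 annotation.

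Several libraries stood apart from their groups. Among the 8 saline livers of Mgmt-/- mice at Day5, 2 held more than 1000 normalized units of Kap, a kidney gene. They were left out throughout, so that 6 remained, and the Day5 results are also given with them. At Day1, 2 WT NDMA livers expressed sex-linked genes that went against their labelled sex. At each later time 1 WT NDMA library, 4 in all, held fewer than 300000 reads. Reads ran from 150038 to 4791649 per WT library with a median of 1710016, and from 713584 to 7740710 per Mgmt-/- library with a median of 2347670. Mgmt itself ran from 13.0 to 130.0 normalized units in WT livers with a median of 45.8, and from 0 to 9.67 in Mgmt-/- livers with a median of 1.09, and the genotypes did not overlap. The 5 hepatocyte genes checked (Alb, Apoa1, Ttr, Serpina1c and Fgb) were detected in every group. In bulk liver, fewer cells of a type and less RNA per cell cannot be told apart, and the p-values below measure the spread between these mice. Litters were assigned whole to saline or NDMA, and since the labels name no litter, litter and treatment cannot be told apart.

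**Figure D1:**
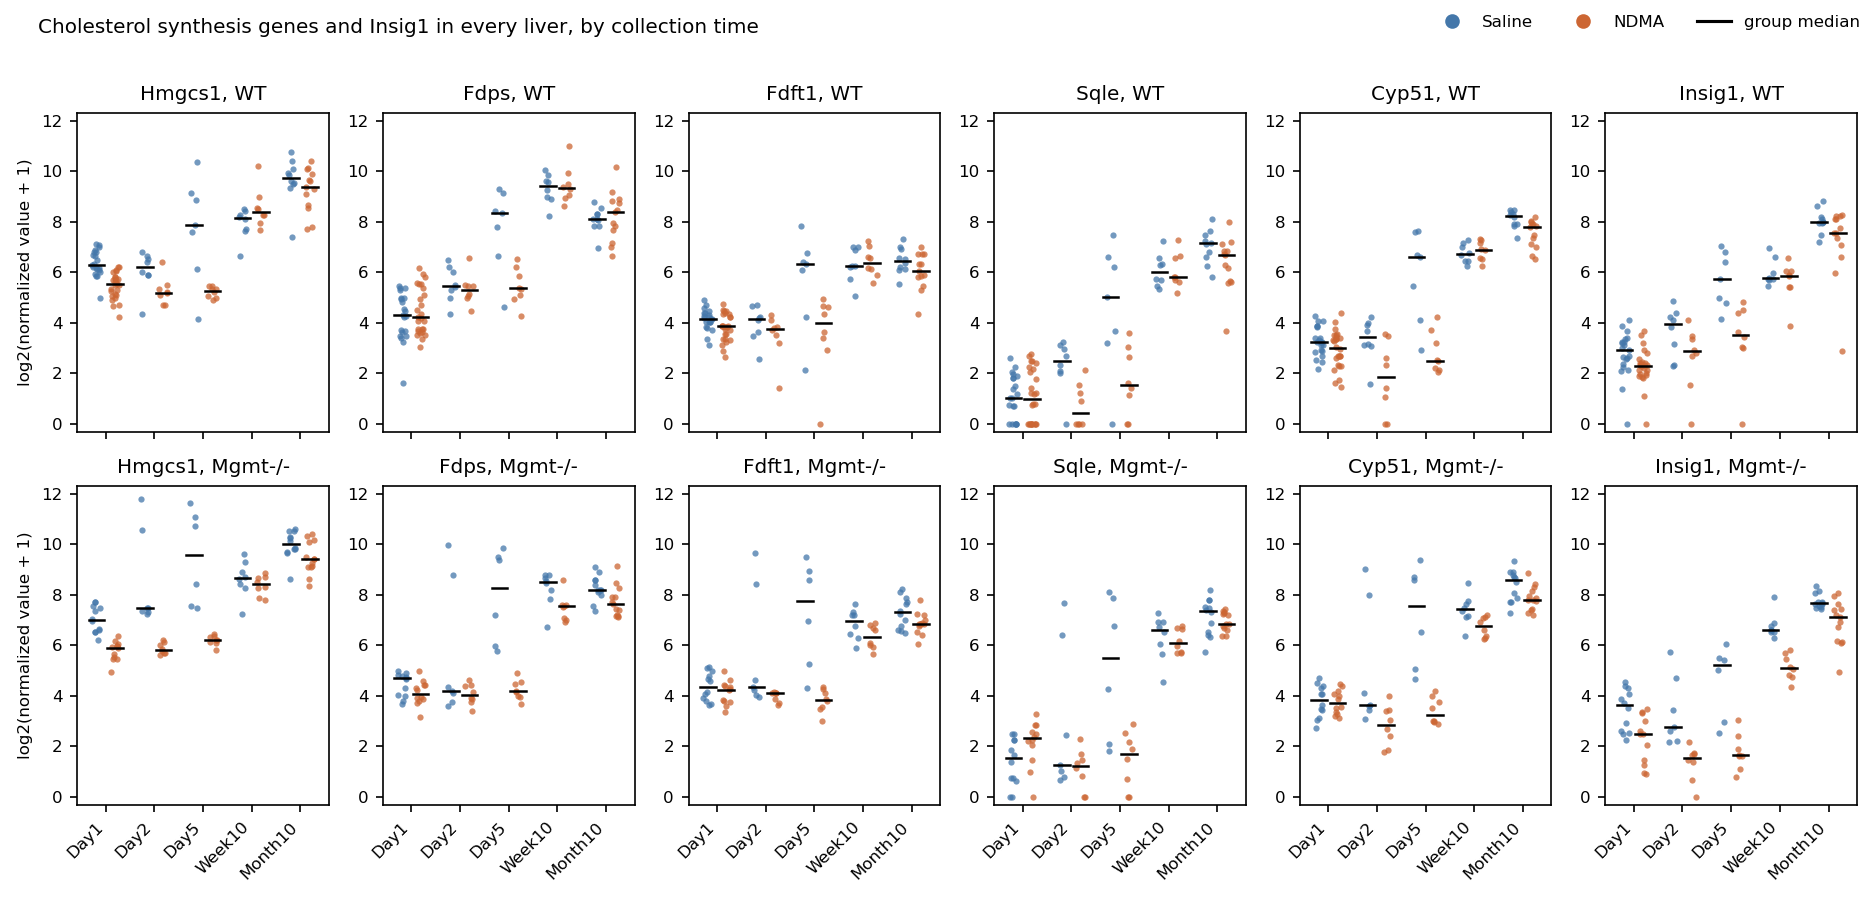
Normalized values of 6 of the genes on the log2(value + 1) scale in every liver used, by collection time, with WT in the upper and Mgmt-/- in the lower panels. Points are livers, saline in blue and NDMA in orange, and black bars are group medians. At Day5 the Mgmt-/- medians of Hmgcs1 were 999.6 in saline and 72.3 in NDMA livers before the log.

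Saline livers give the course of these genes from suckling pups to adults. The labels give each library a batch code without saying what the libraries of a batch had in common, and the times did not all share batches. WT Day1 livers shared none with Day2, Day5 or Week10 and were linked to them through Month10 alone, and Mgmt-/- livers of Day2 and Day5 shared none with Week10 or Month10 and were linked through Day1. The fits held batch as a term, but the levels and mean folds given here are not corrected for it, and across unshared batches age and batch cannot be told apart in them. In WT mice the median normalized value of Hmgcs1 was 77.7 at Day1 (30.4 to 137), 73.8 at Day2 (19.3 to 109), 235 at Day5 (16.8 to 1312), 284 at Week10 (100.1 to 367) and 855 at Month10 (166 to 1747). The median value of Sqle at the same times was 1.07, 4.73, 31.7, 64.7 and 141. The median value of Insig1 was 6.66, 14.7, 51.9, 53.0 and 253. All 3 had their highest median at Month10, and neighbouring times of Hmgcs1 overlapped throughout. By mean level the order of Insig1, Sqle and Cyp51 was Day1, Day2, Day5, Week10 and Month10, with the last above the first by 39.7-fold for Insig1 and 30.0-fold for Cyp51. No fold is given for Sqle, whose Day1 median lay under what 3 reads were worth in any of those livers (1.25 to 9.32 units). Fdps kept another order, with its highest mean at Week10, 31.2-fold above Day1.

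A gene was called where the limma adjusted p was below 0.05 and the absolute log2 fold change above 0.58. From Day2 to Day5, 6 of the 6 genes tested were called higher in WT saline livers, where 0.564% of all genes were, and their median log2 fold change was 2.15 against 0.02 over all genes. At Day2 Sqle had a mean under the 5 units required for testing and was tested through older livers. The count and the median that include it are descriptions. The log2 fold changes were 2.52 for Cyp51, 2.26 for Fdps, 2.26 for Sqle, 2.05 for Insig1, 1.80 for Fdft1 and 1.75 for Hmgcs1. Without the 3 saline Day2 livers whose reads could not be recovered from the normalized values, Cyp51 alone of the 6 was called (log2 fold change 2.23, adjusted p = 0.0348), and the others lay between 1.49 and 2.03. From Day1 to Day2 limma called 0 of 6 (0 at an unadjusted p under 0.05 and 0 by edgeR), where 0.354% of all genes were called higher. From Day5 to Week10 Fdps rose by 1.51 on the log2 scale (adjusted p = 0.0124), the 1 gene of 6 called, where 3.92% of all genes were.

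From Week10 to Month10 in WT saline livers, Insig1 (2.24), Hmgcs1 (1.73) and Cyp51 (1.33) rose and Fdps fell by 1.04 on the log2 scale. The step was general, with 39.8% of all genes called higher and 21.2% lower, a median over all genes of 0.36, and a further 0.39 when libraries were scaled to the same total, under which Fdps was no longer called. Compared over both adult times against the 3 pup times, 6 of 6 were higher in WT saline livers (22% of all genes), from 1.95 for Fdft1 to 3.60 for Sqle. The value of Sqle is a description, since its Day1 median lay under what 3 reads were worth. Of the other 16 enzymes of the pathway 14 were higher as well. Markers of other cells were lower in the same adult livers: 6 of 7 macrophage genes, 2 of 2 T cell genes, 4 of 5 stellate and fibroblast genes, 2 of 5 endothelial genes and 5 of 5 proliferation genes, whose sum had medians of 274.7 units at Day1, 138.4 at Day2, 161.6 at Day5, 22.8 at Week10 and 10.65 at Month10. Spp1 and the hepatocyte gene Apoa1 were lower and Sox9 of cholangiocytes was higher, and the part of these shifts in the result was not tested.

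In Mgmt-/- saline livers the median value of Hmgcs1 was 127 at Day1, 177 at Day2, 999.6 at Day5, 401 at Week10 and 1026 at Month10, and that of Insig1 was 11.4, 5.87, 36.6, 95.2 and 201. The Day2 and Day5 groups spread widely, from 149 to 3518 and from 175 to 3142 for Hmgcs1. Adult livers were called higher than pup livers for 3 of 6 genes (14.9% of all genes): Cyp51 by 3.34, Insig1 by 3.03 and Fdps by 2.54 on the log2 scale. Values for the others were 2.62 for Sqle (adjusted p = 0.0538), 1.45 for Hmgcs1 (0.113) and 0.88 for Fdft1 (0.428). Sqle was too low at Day1 to be tested between treatments, and its value here is a description. With time as the only term 6 of the 6 were called. In these adult livers 3 of 7 macrophage genes, 2 of 2 T cell genes, 4 of 5 stellate and fibroblast genes, 3 of 5 endothelial genes, 5 of 5 proliferation genes and 2 of 5 hepatocyte genes (Apoa1 and Ttr) were called lower, which was not tested as a part of the result. From Week10 to Month10 Hmgcs1 (1.34) and Insig1 (1.01) rose, 2 of 6, where 31% of all genes did. Between neighbouring earlier times limma called 0 of 6 from Day1 to Day2 (0.0303% of all genes, 3 of the 6 at an unadjusted p under 0.05 and 3 by edgeR), 0 from Day2 to Day5 (0% of all genes, 5 unadjusted, 0 by edgeR) and 0 from Day5 to Week10 (2.21% of all genes, 1 unadjusted, 0 by edgeR).

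**Figure D2:**
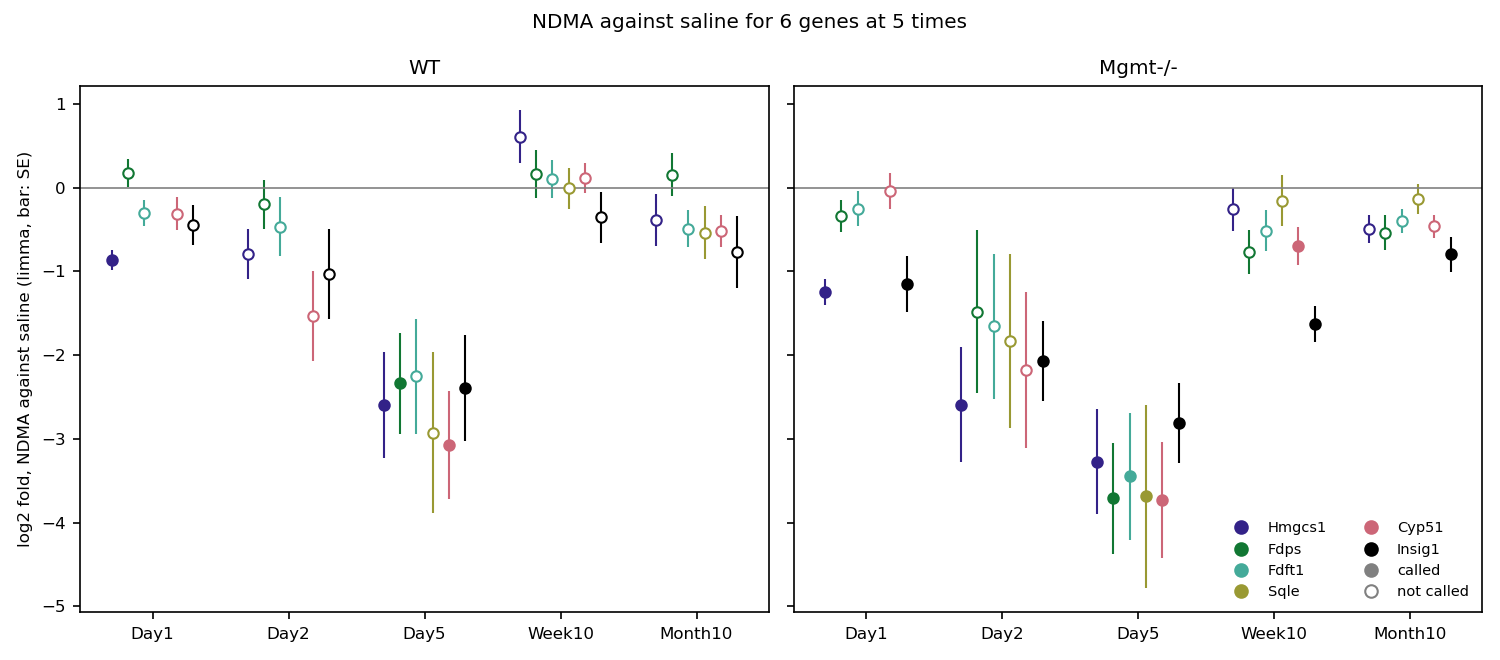
Log2 fold change of NDMA against saline for 6 of the genes at each time, WT left and Mgmt-/- right, with bars for the limma standard error. Filled points were called and open points were not. The lowest values were at Day5, down to -3.07 in WT and -3.74 in Mgmt-/- livers, both for Cyp51.

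One day after the second dose, Hmgcs1, an early enzyme on the way to mevalonate, was lower in NDMA livers of both genotypes, and Insig1 was lower in Mgmt-/- livers. In WT mice Hmgcs1 ran from 30.4 through a median of 77.7 to 137 in 21 saline livers and from 17.9 through 44.9 to 73.4 in 26 NDMA livers. The groups overlapped, but 12 of the 21 saline values lay above every NDMA value. Its log2 fold change was -0.86 ± 0.12 (SE, adjusted p = 2.96e-07), and it was the 1 of 5 genes called lower, where 4.19% of all genes were. Within single batches the log2 fold changes were -1.09, -1.02 and -0.13, the last not called. Insig1 (-0.45), Cyp51 (-0.31), Fdft1 (-0.30) and Fdps (0.17) were not called, and Sqle and Idi1 were too low to test. Insig1 reached the limit of a mean of 5 units through its saline livers (6.86, against 4.37 in NDMA livers), so its value is a description. Markers of other cells moved in the same WT livers. Of the 7 macrophage genes Cd68 (0.80), Lyz2 (0.63) and Cd5l (0.62) were called higher and Csf1r (-0.59) lower, with summed medians of 949.7 units in saline and 1025 in NDMA livers. Cd3d (1.19) of T cells and Spp1 (0.65) of cholangiocytes were higher, and Col3a1 (-1.15) and Col1a2 (-0.94) of stellate cells and fibroblasts and Stab2 (-0.97) of endothelium were lower. Cyp17a1, a steroid-making enzyme, was higher by 1.72. The hepatocyte sum had medians of 247600 and 190700, with 0 of 5 genes called. The part of these shifts in the result was not tested.

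In Mgmt-/- mice at Day1, Hmgcs1 ran from 72.5 through a median of 127 to 211 in 12 saline livers and from 29.9 through 58.8 to 80.7 in 12 NDMA livers. Of the saline livers 11 lay above every NDMA liver, so that the groups all but separated. Insig1 ran from 3.79 through 11.4 to 22.3 in saline and from 0.860 through 4.67 to 10.3 in NDMA livers, and 7 saline livers lay above every NDMA liver. The log2 fold changes were -1.24 ± 0.15 for Hmgcs1 (adjusted p = 5.64e-08) and -1.15 ± 0.34 for Insig1 (adjusted p = 0.00991), 2 of 5 called lower against 8.64% of all genes. The NDMA mean of Insig1 (4.85 units) was under the limit of 5 that its saline mean (11.5) carried it over. Within the 2 batches they were -1.28 and -1.18 for Hmgcs1 and -1.13 and -1.19 for Insig1, of which the last was not called. Fdps (-0.34), Fdft1 (-0.25) and Cyp51 (-0.04) were not called, and with libraries scaled to the same total Cyp51 stood at 0.15. That scaling raised the median over all genes by 0.15 to 0.20 in Mgmt-/- livers at Day1, Day2, Day5 and Week10. The medians of the members tested were -0.31 in WT and -0.34 in Mgmt-/- livers, against -0.03 and 0.02 over all genes. Both include Insig1, tested through its saline mean, and are descriptions. Of the other 16 enzymes 15 were tested, and in both genotypes the 1 called was Tm7sf2, a sterol reductase, at -1.17 in WT and -1.25 in Mgmt-/- livers. Srebf1, whose main liver product drives fatty acid synthesis, fell by 0.71 in WT and by 1.03 in Mgmt-/- livers on the log2 scale. Of the hepatocyte genes Alb, Apoa1 and Serpina1c were called lower in Mgmt-/- livers at this time, 3 of 5, and of the 7 macrophage genes 3 were called lower and 1 higher. Of 5 stellate and fibroblast genes 3 were lower, and of 5 endothelial genes 3 were lower and 1 higher. Cd3d of T cells and Cdk1 of dividing cells were higher and Spp1 was lower, and Cyp17a1 was higher by 1.59. The part of these shifts in the result was not tested.

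Other genes of the lists were called at Day1 in both genotypes. Of the fatty acid genes Elovl6 (1.56 in WT and 1.84 in Mgmt-/- livers) and Scd1 (0.78 and 1.02) rose, and Thrsp fell by 1.31 and 1.56. Elovl6 was tested in WT livers through its NDMA mean (7.59 units, against 2.16 in saline livers). Cyp7a1, the rate-limiting enzyme of bile acid synthesis, fell by 0.68 and 1.44, Cyp27a1 by 0.78 and 1.05 and Lrp1, an endocytic receptor, by 0.63 and 0.65. Fasn (-0.68) and Scap (-0.65) fell in WT livers. In Mgmt-/- livers Me1 rose by 1.32, and Mylip (-1.01), Scarb1 (-0.91), Abcg5 (-0.74) and Soat2 (-0.64) fell.

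At Day2, Hmgcs1 separated the Mgmt-/- groups completely, and Insig1 did so by less than 1 read was worth. Hmgcs1 ran from 149 through a median of 177 to 3518 in 7 saline livers and from 47.5 through 55.2 to 73.9 in 8 NDMA livers. Insig1 ran from 3.55 through 5.87 to 51.6 in saline and from 0 through 1.94 to 3.50 in NDMA livers. Every saline value of both genes lay above every NDMA value. For Insig1 the closest 2 values were 3.55 and 3.50. There 1 read was worth 0.58 to 1.03 units in saline and 0.54 to 0.88 in NDMA livers. The log2 fold changes were -2.59 ± 0.69 (adjusted p = 0.014) and -2.07 ± 0.48 (adjusted p = 0.00163), and they were the 2 of 6 called lower, where 7.5% of all genes were. For Hmgcs1 this is 6.03-fold. Insig1 reached the limit of a mean of 5 units through its saline livers (mean 14.9, against 1.77 in NDMA livers), so its call is a description and no fold is given, and Sqle was tested for the same reason. Each kept its call in every fit that left out 1 liver, between -2.86 and -1.95 for Hmgcs1 and between -2.37 and -1.82 for Insig1, except the 1 fit without the male saline liver of 3518, in which Insig1 was under the limit on low values and was not tested.

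The saline group at Day2 was not uniform. A male and a female liver held 3518 and 1487 units of Hmgcs1 and the other 5 held 149 to 178. In those 2 livers all 6 tested genes lay above every NDMA liver, while in the other 5 Fdps, Fdft1, Sqle and Cyp51 lay near the NDMA values. The median values of these 4 were 17.0, 19.5, 1.42 and 11.3 in saline and 15.3, 16.1, 1.38 and 6.29 in NDMA livers. They had log2 fold changes of -1.48 (Fdps), -1.66 (Fdft1), -1.84 (Sqle) and -2.18 (Cyp51) and were not called by limma, although edgeR and DESeq2 called all 6. Leaving out 1 liver gave -1.90 to -0.62 for Fdps and -1.95 to -0.89 for Fdft1. It gave -2.27 to -0.94 for Sqle and -2.59 to -1.40 for Cyp51. The 2 high livers had kidney marker sums of 21.49 and 14.6 units, one of the others had 12.47 and the rest had 0. Their hepatocyte sums were 318790 and 331710 against 321350 to 402550 in the other 5. The part of these values in the result was not tested. Among NDMA livers the hepatocyte sum had a median of 241100 against 362800 in saline, with 3 of 5 genes called lower, and the macrophage sum one of 2172 against 1035, with 4 of 7 called higher. Cd3d (2.58) and Cd3g (1.79) of T cells, Ccnb1 (1.46), Cdk1 (1.15) and Top2a (1.09) of dividing cells and Lyve1 (0.97) and Pecam1 (0.91) of endothelium were also higher, and Stab2 (-0.95) of endothelium and Col3a1 (-0.70) and Col1a2 (-0.61) of stellate cells and fibroblasts were lower. The part of these shifts in the result was not tested.

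Regulators and a sterol carrier fell with Hmgcs1 and Insig1 in Mgmt-/- livers at Day2. Stard4, the carrier, fell by 1.49, Srebf1 by 0.94, Scap, the escort of SREBP, by 0.80 and Insig2 by 0.77 on the log2 scale. Of the 15 other synthesis enzymes tested, Tm7sf2 fell by 1.84 and Ggps1 rose, and the other 13 were not called, with a median of -0.57 over the list. Thrsp fell by 5.01, Cyp27a1 by 1.17, Fads1 by 0.85 and Lrp1 by 0.59, and Abcg1 (1.23), Soat1 (0.81) and Npc2 (0.71) rose.

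In WT livers at Day2 limma called 0 of 5 genes lower (2.91% of all genes), with 2 at an unadjusted p under 0.05, 2 called by edgeR and 1 by DESeq2. Hmgcs1 ran from 19.3 through a median of 73.8 to 109 in 8 saline livers and from 25.2 through 35.6 to 84.1 in 8 NDMA livers, and the groups overlapped. Its log2 fold change was -0.79 ± 0.30 (adjusted p = 0.116). Sex and batch coincided at this time, and within the batch of males it was -1.18 (adjusted p = 0.000217) while within that of females it was -0.40 (adjusted p = 0.768). Cyp51 stood at -1.53 ± 0.54 (adjusted p = 0.0886), Insig1 at -1.03, Fdft1 at -0.46 and Fdps at -0.20. Cyp51 was tested through its saline mean (10.5 units, against 4.15 in NDMA livers), so its value is a description. Leaving out 1 liver gave -1.27 to -0.63 for Insig1, -0.61 to -0.21 for Fdft1 and -0.41 to -0.07 for Fdps. Among markers of cell types, Cd3d of T cells (1.64) and Lyz2 of macrophages (0.68) were called higher in these NDMA livers, and Alb (-0.92), Dcn (-1.07), Clec4f (-0.67) and Vsig4 (-0.63) lower, and their part in the values was not tested. Of the other list genes Cyp27a1 (-0.84), Lbr (-0.75) and Elovl5 (-0.68) fell. The median of the 5 was -0.79 in WT livers and that of the 6 was -1.955 in Mgmt-/- livers, against -0.08 and 0.03 over all genes. Both medians include genes tested through their saline means alone and are descriptions.

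At Day5 the genes differed most between NDMA and saline, in both genotypes. In Mgmt-/- livers 6 of the 6 tested were called lower, where 6.71% of all genes were, and the median log2 fold change was -3.57 against 0.03 over all genes. Hmgcs1, Fdps, Fdft1 and Cyp51 had means above the limit of 5 units in both groups. Insig1 (mean 2.81 in NDMA livers) and Sqle (2.49) were above it in saline livers alone and so were tested because they were high there, and the count and the median that include them are descriptions. Hmgcs1 ran from 175 through a median of 999.6 to 3142 in 6 saline livers and from 55.9 through 72.3 to 85.5 in 8 NDMA livers. Fdps ran from 54.2 through 401 to 924 in saline and from 11.8 through 17.0 to 28.7 in NDMA livers. Cyp51 ran from 24.7 through 235 to 654 in saline and from 6.49 through 8.71 to 17.3 in NDMA livers. In these 3 every saline liver lay above every NDMA liver. Fdft1 ran from 18.7 through 250.5 to 718 in saline and from 6.93 through 13.2 to 19.6 in NDMA livers, with 5 of 6 saline livers above all NDMA livers. Sqle ran from 2.56 through 63.3 to 272 in saline and from 0 through 2.26 to 6.41 in NDMA livers. Insig1 ran from 4.71 through 36.6 to 64.7 in saline and from 0.712 through 2.13 to 7.17 in NDMA livers. For Sqle and Insig1 the lower saline livers overlapped the NDMA livers and 4 of 6 lay above them all.

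The corresponding log2 fold changes were -3.74 ± 0.69 for Cyp51 (13.3-fold, adjusted p = 0.00182), -3.71 ± 0.66 for Fdps (13.1-fold, adjusted p = 0.00146), -3.69 ± 1.10 for Sqle (adjusted p = 0.03), -3.45 ± 0.76 for Fdft1 (10.9-fold, adjusted p = 0.00585), -3.27 ± 0.63 for Hmgcs1 (9.67-fold, adjusted p = 0.00252) and -2.81 ± 0.48 for Insig1 (adjusted p = 0.000155). With the 2 saline livers rich in kidney RNA included, all 6 were still called, from -2.06 for Insig1 to -3.62 for Sqle. When 1 liver was left out at a time, the calls for all but Sqle held in 14 of 14 fits. Sqle lost its call in 7 of the 14, with an adjusted p of up to 0.065.

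In WT livers at Day5, 4 of the 6 tested were called lower, where 1.39% of all genes were, with a median log2 fold change of -2.495 against -0.07 over all genes. That median includes Sqle, which was tested through its saline mean, and is a description. Hmgcs1 ran from 16.8 through a median of 235 to 1312 in 7 saline livers and from 28.7 through 37.5 to 43.4 in 8 NDMA livers. The NDMA livers lay close together, and 6 of the 7 saline livers lay above them all while the lowest lay below them all. Insig1 ran from 16.8 through 51.9 to 132 in saline and from 0 through 10.64 to 27.2 in NDMA livers, and 5 saline livers lay above every NDMA liver. The log2 fold changes were -3.07 ± 0.64 for Cyp51 (adjusted p = 0.015), -2.60 ± 0.63 for Hmgcs1 (adjusted p = 0.0355), -2.39 ± 0.63 for Insig1 (adjusted p = 0.0479) and -2.34 ± 0.61 for Fdps (adjusted p = 0.0469). Sqle (-2.93 ± 0.96, adjusted p = 0.106), tested through its saline mean as well, and Fdft1 (-2.25 ± 0.69, adjusted p = 0.0833) were not called by limma, while edgeR and DESeq2 called all 6.

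Sex and batch coincided here too. Within the batch of males all 6 were called, from -2.38 for Insig1 to -4.00 for Cyp51, and within that of females none was (adjusted p = 0.786 for each), with values from -1.61 for Fdps to -2.40 for Insig1. Without 1 saline female, the liver with 16.8 units of Hmgcs1, 6 were called, and when any other single liver was left out between 1 and 4 were, with Cyp51 called each time.

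Idi1, the isomerase between mevalonate and Fdps, was at the edge of detection. It was listed at 0 in all 8 NDMA livers at Day2 and at Day5 in both genotypes. In Mgmt-/- saline livers at Day5 it was above 0 in 4 of 6, up to 5.47 units, and 3 reads would have been worth 1.62 to 2.73 units in the NDMA livers, so no fold change is given. Its highest group mean, in Mgmt-/- saline livers at Month10, was 3.29 units, below the mean of 5 required for testing. Such floors cover counting error alone.

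**Figure D3:**
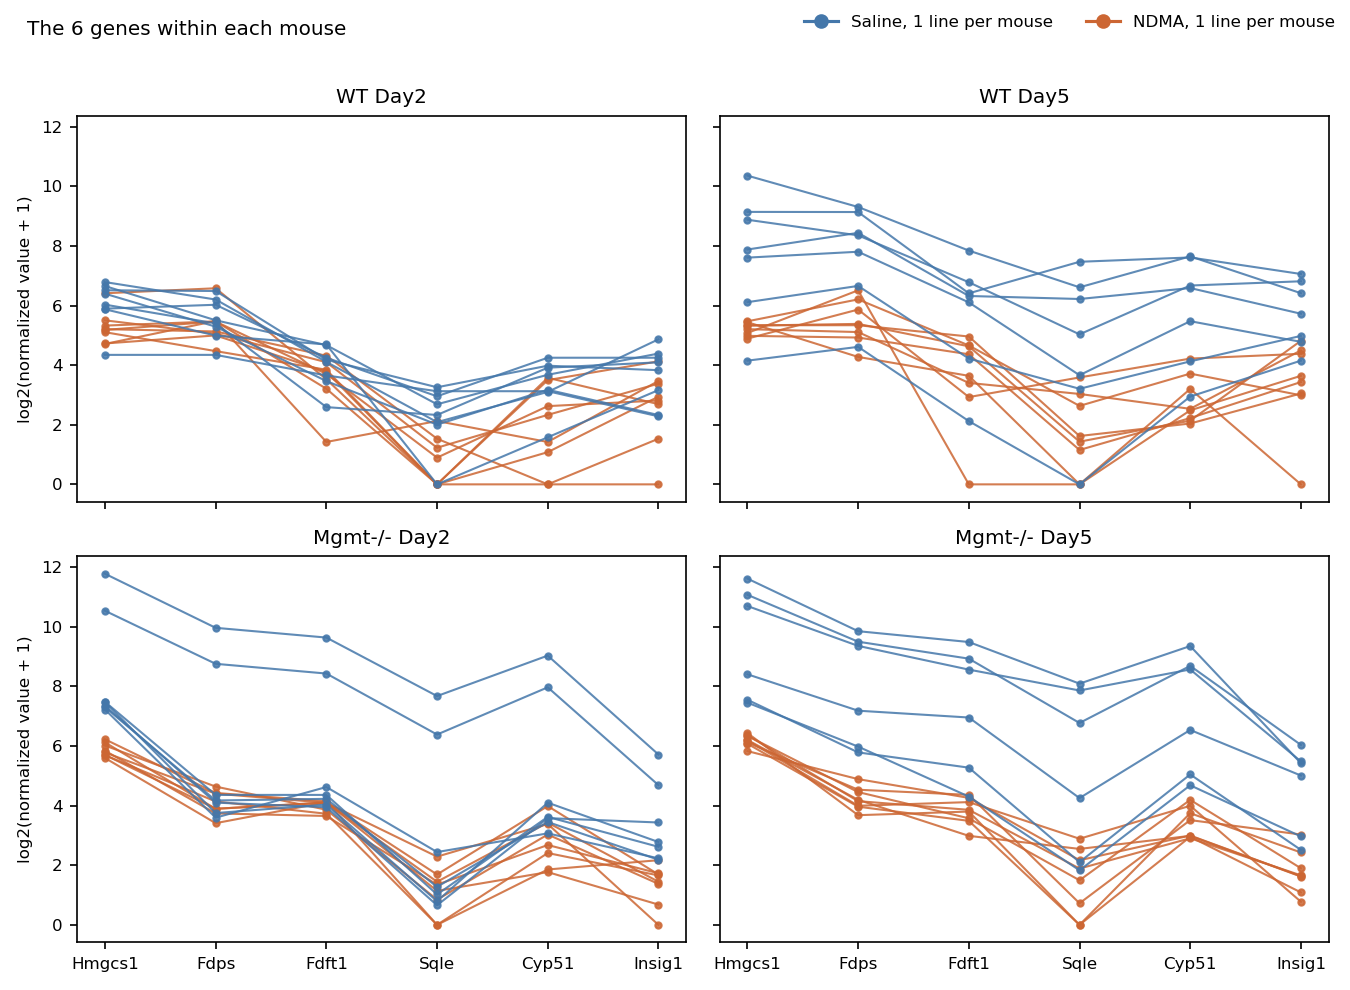
The 6 tested genes within each mouse at Day2 and Day5 on the log2(normalized value + 1) scale, with 1 line per liver, saline in blue and NDMA in orange. All 6 lay above every NDMA liver in 4 of 7 WT saline livers at Day5, in 2 of 7 Mgmt-/- saline livers at Day2 and in 4 of 6 at Day5.

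The 6 genes varied widely between saline livers at Day5. In single Mgmt-/- saline livers at Day5, Hmgcs1 was 175, 187 and 1661 units in females and 339, 2155 and 3142 in males. In WT saline livers at Day5 it was 16.8, 68.2, 235 and 564 in females and 194, 470 and 1312 in males. High and low livers occurred in both sexes, and the high ones were high for all 6 genes, as the lines for single mice show. The SD of log2 values within a group, as the median over the 6 genes, was 1.94 in saline and 0.487 in NDMA livers of Mgmt-/- mice at Day5, 2.41 and 0.548 at Day2, and 1.85 and 1.07 in WT mice at Day5. At Week10 it was 0.652 and 0.461 in Mgmt-/- mice and 0.600 and 0.709 in WT mice. The saline groups with an SD above 1 were those of Day5 in both genotypes and of Day2 in Mgmt-/- mice.

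Over all livers, after subtracting the mean of each group, sex and batch, the 15 pairs among the 6 genes correlated with a median Pearson r of 0.80 in Mgmt-/- livers (0.38 to 0.86, 94 livers) and 0.41 in WT livers (-0.14 to 0.59, 117 livers). Insig1 stood apart from the 5 enzymes. Its 5 pairs ran from 0.38 to 0.56 in Mgmt-/- livers, below the other 10 pairs (0.77 to 0.86). In WT livers its r was -0.14 with Fdps, 0.10 with Hmgcs1, 0.22 with Cyp51, 0.36 with Sqle and 0.37 with Fdft1, while pairs among the enzymes ran from 0.30 to 0.59. Among 9072 other genes the 10 most like the mean of the members included Msmo1, Lss, Hsd17b7, Mvk, Rdh11, Nsdhl and H2-Q10. Of the 10, 8 are other enzymes of the pathway. Msmo1, a sterol demethylase, had an r of 0.69 in WT and 0.81 in Mgmt-/- livers, and Lss, which closes the sterol rings, 0.59 and 0.81. The values are a description, since livers share batches and depth differs between them. Insig1 and Sqle had low values in many pup livers, and the part of this in their r was not tested.

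**Figure D4:**
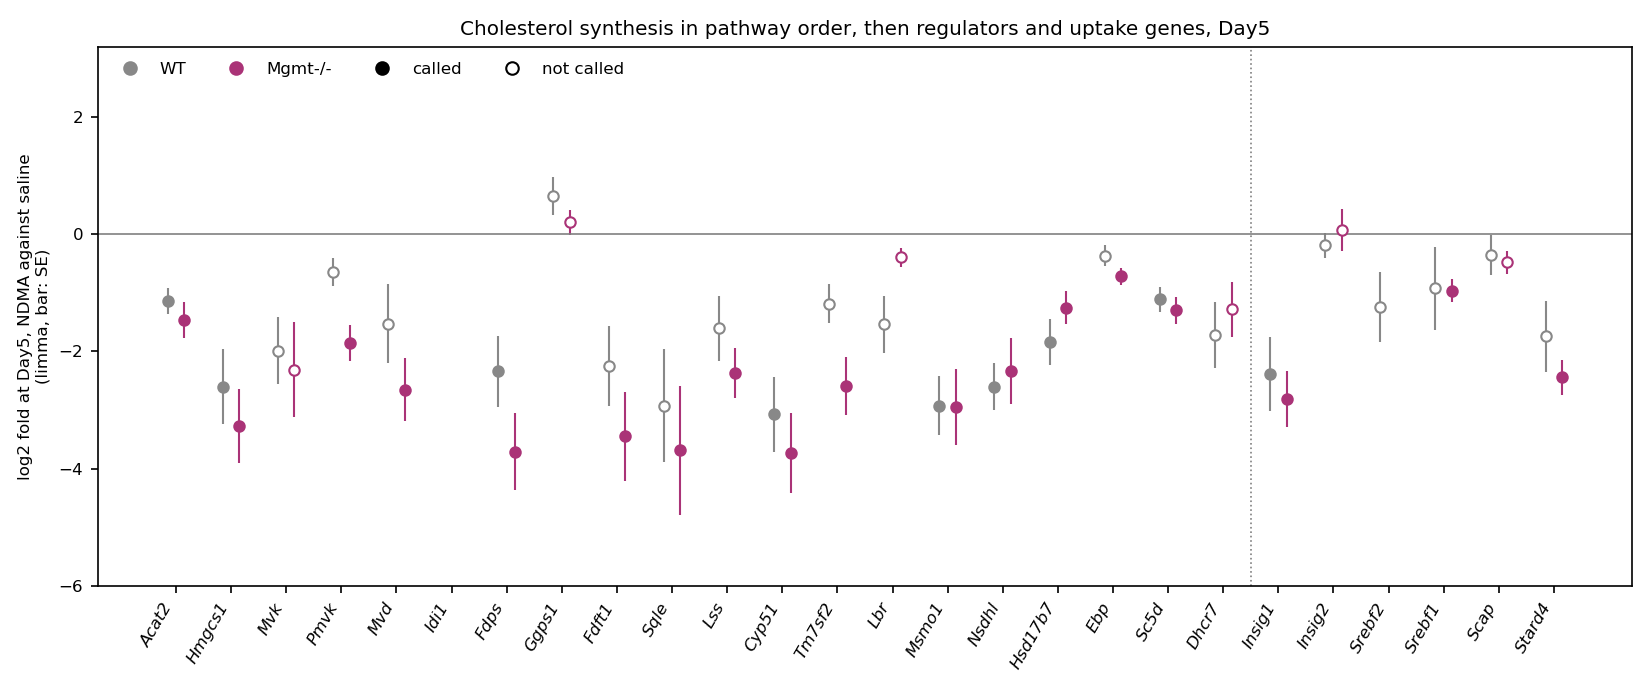
Log2 fold change of NDMA against saline at Day5 along the cholesterol pathway (left of the dotted line) and for regulators and uptake genes (right), WT in grey and Mgmt-/- in purple, with bars for the limma standard error and filled points for called genes. Not every gene of the lists is plotted, and in Mgmt-/- livers Msmo1 stood at -2.95 and Insig2 at 0.07.

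The rest of the pathway was examined through lists. Of the other 16 enzymes of cholesterol synthesis, 12 were called lower and 0 higher in Mgmt-/- livers at Day5, with a median log2 fold change of -1.66. Msmo1 fell by 2.95, Mvd, which makes isopentenyl diphosphate, by 2.65, Tm7sf2 by 2.59, Lss by 2.37 and Nsdhl by 2.34 on the log2 scale. Pmvk, Acat2, Sc5d, Hsd17b7 and Ebp were among the others that fell, by 1.86 to 0.72. Those not called were Mvk (-2.31), Dhcr7 (-1.28), Lbr (-0.39) and Ggps1 (0.20), and Ggps1 leads away from sterols toward geranylgeranyl groups. In WT livers 6 of 16 were called lower, with a median of -1.53, among them Msmo1 (-2.92), Nsdhl (-2.60), Hsd17b7 (-1.84), Acat2 (-1.14) and Sc5d (-1.11).

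Among genes of cholesterol uptake and transport, 4 of 10 tested were called lower in Mgmt-/- livers at Day5, with a median of -0.20 over the list. Stard4 fell by 2.44 and Tmem97, a sterol-responsive membrane protein, by 0.67 on the log2 scale. Npc2, which moves cholesterol out of lysosomes, rose by 0.58. In WT livers the median over the list was -0.42, and Stard4 (-1.74) was not called.

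Regulators and neighbouring branches were listed separately. Among 11 tested genes of SREBP processing and sterol sensing, Srebf1 alone was called at Day5 in Mgmt-/- livers (-0.96), with a median of 0.02 over the list, and Insig2, the second Insig gene, stood at 0.07. In WT livers limma called 0 of 12 (2 at an unadjusted p under 0.05, 0 by edgeR and 0 by DESeq2). Of the SREBP1 fatty acid genes 5 of 11 fell in Mgmt-/- livers: Thrsp (-4.27), Fasn (-3.12), Acss2 (-2.03), Fads1 (-1.39) and Acly (-0.93). In WT livers 1 of 11 did, Fads1 (-0.96), with medians over the list of -0.40 in Mgmt-/- and -0.93 in WT livers. Among 13 genes regulated by LXR or handling sterol esters, efflux and bile acids, Abcg1 (1.37) and Soat1 (1.08) rose and Cyp27a1, a bile acid enzyme, fell by 0.58 in Mgmt-/- livers. In WT livers Cyp27a1 fell by 1.17 (adjusted p = 0.0108), while Abcg1 (0.79) and Soat1 (-0.04) were not called. In the list of non-sterol isoprenoid genes limma called 0 in each of the 10 treatment comparisons, with 1 at an unadjusted p under 0.05 in Mgmt-/- livers at Day1, 2 in Mgmt-/- livers at Month10 and 0 in the other 8, and edgeR and DESeq2 called 0.

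Markers of other cells also moved at Day5. The summed level of 7 macrophage genes, led by Lyz2, had medians of 1090 units in saline and 2292 in NDMA livers of Mgmt-/- mice, with 4 of 7 called higher, and of 795 and 1401 in WT mice, with 2 of 7 called higher. The sum of 4 T cell genes had medians of 18.1 and 115 in Mgmt-/- and of 10.59 and 43.8 in WT livers, and both genes tested, Cd3d and Cd3g, were called higher in each. The hepatocyte sum, led by Alb in Mgmt-/- livers, had medians of 343800 and 257100 with 1 of 5 genes (Serpina1c) called lower, and in WT livers of 191100 and 185100 with 0 of 5 called. The cholangiocyte sum, led by Spp1, had medians of 326 and 118 in Mgmt-/- livers and 169 and 197 in WT livers. The sum of 5 proliferation genes had medians of 217 and 304 in Mgmt-/- livers, with 2 called higher, and 162 and 197 in WT livers, with 0 called. The kidney sum, led by Fxyd2, had medians of 1.23 and 0 in Mgmt-/- livers. Lyve1 was called higher and Stab2, Clec4g, Col3a1 and Spp1 lower in Mgmt-/- livers, and Dcn lower in WT livers. Of the steroid genes Cyp17a1 was called higher (1.62) and Hsd3b1 lower (-2.30) in Mgmt-/- livers. In single Mgmt-/- saline livers the kidney sum was 7.16, 0, 8.99 and 2.47 units in those with 3142, 2155, 1661 and 339 units of Hmgcs1. It was 0 in those with 187 and 175. Kidney genes were thus detected in 3 of the 4 livers high in the members and in neither of the 2 low ones. These were few reads, since 1 read was worth 0.47 to 1.02 units in these livers. Slc34a1 and Slc12a1 were at 0 in all 6. In the same order of the 6 livers the proliferation sum was 276, 335, 267, 157, 168 and 106 units, higher in the 3 livers highest in Hmgcs1 than in the others, and the hepatocyte sum was 333940, 327680, 316860, 353690, 358920 and 427180, lower in those 3. The part of these shifts in the result was not tested.

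At Week10, Insig1 was the gene that separated Mgmt-/- livers by treatment. It ran from 77.5 through a median of 95.2 to 242 in 8 saline livers and from 19.3 through 33.6 to 54.5 in 8 NDMA livers, and no values overlapped. Its log2 fold change was -1.63 ± 0.22 (3.10-fold, adjusted p = 1.16e-05), and it was called in each of the 16 fits that left out 1 liver, between -1.74 and -1.49. Cyp51 fell by 0.69 ± 0.23 (adjusted p = 0.0495) and lost its call in 11 of those 16 fits. These were the 2 of 6 called lower, where 3.88% of all genes were. The synthesis enzymes Fdps (-0.76, adjusted p = 0.0602), Fdft1 (-0.51), Hmgcs1 (-0.26) and Sqle (-0.15) were not called, Sqle standing at 0.05 with libraries scaled to the same total, and Hmgcs1 ran from 151 to 771 in saline and from 221 to 460 in NDMA livers. Leaving out 1 liver gave -0.47 to -0.11 for Hmgcs1 and -0.41 to 0.01 for Sqle. The median of the 6 was -0.60 against 0.04 over all genes. With libraries scaled to the same total the median over all genes became 0.24, Insig1 remained called and Cyp51 did not.

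**Figure D5:**
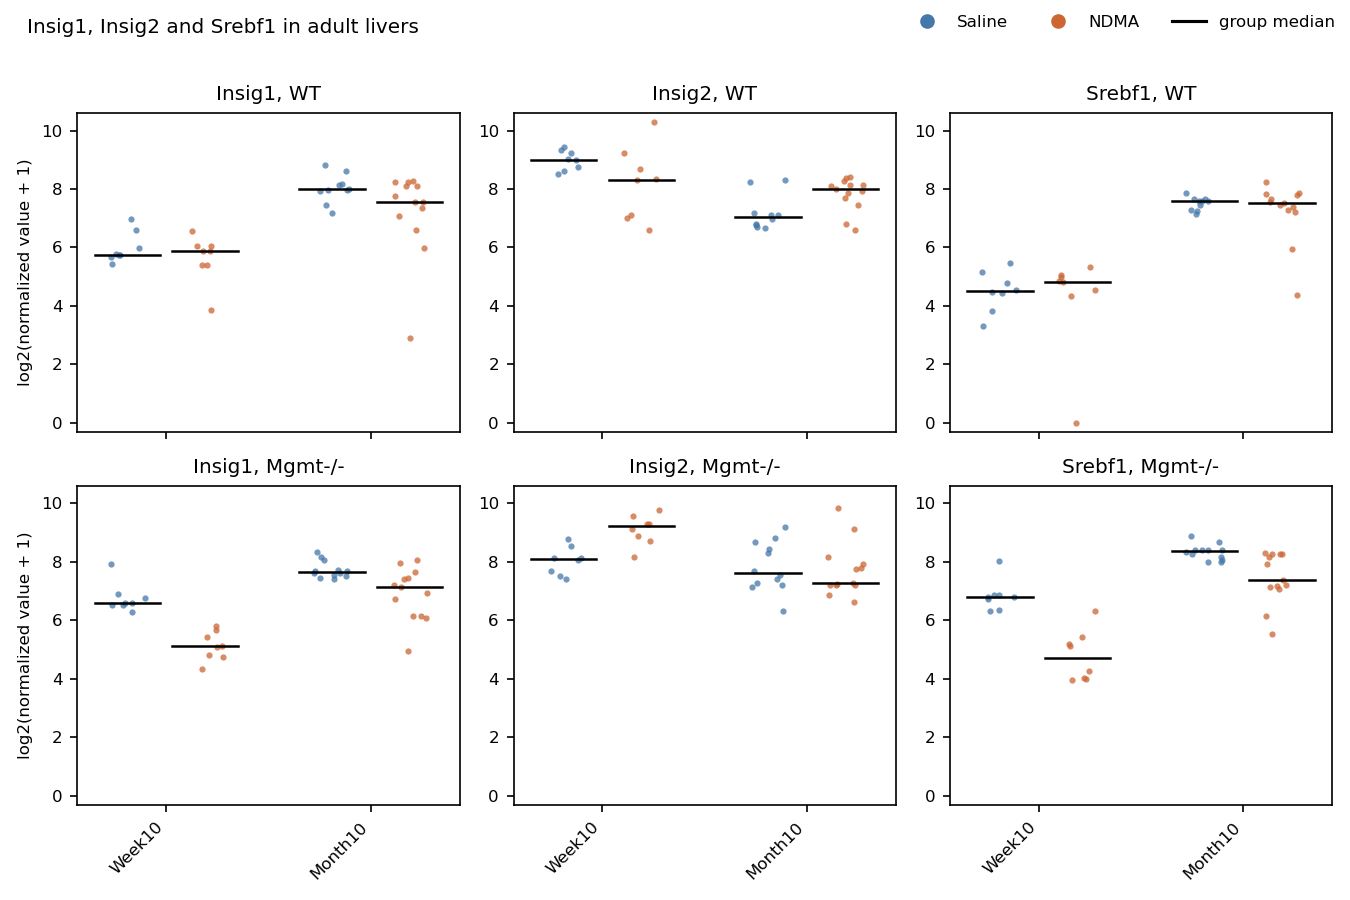
Insig1, Insig2 and Srebf1 in adult livers on the log2(normalized value + 1) scale, WT above and Mgmt-/- below, with points for livers (saline blue, NDMA orange) and black bars for medians. At Week10 the 8 Mgmt-/- NDMA livers lay at 19.3 to 54.5 units of Insig1, below all 8 saline livers (77.5 to 242), and WT livers overlapped.

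Insig1 was accompanied at Week10 by several regulators. Srebf1 fell by 2.05 on the log2 scale, from a mean of 122 units in saline to 31.7 in NDMA livers. Insig2 rose by 1.08, from a mean of 274 to 582, so that the pair of Insig genes went in opposite directions. Stard4 (-1.23), Tm7sf2 (-0.87) and Hsd17b7 (-0.81) fell, and 3 of the 16 other enzymes were called in all. Of 12 fatty acid genes 5 fell, Thrsp by 2.54, Fasn by 1.44 and Acly by 0.75 among them, with Acacb (-1.21) and Acaca (-0.84), and Cyp27a1 fell by 0.86 and Abcg8, a sterol exporter, by 0.77. These livers also held higher sums of macrophage genes (medians 809 and 1574, 3 of 7 called higher), stellate and fibroblast genes (373 and 657, 4 of 5 called higher, the sum led by Dcn, which was not called), proliferation genes (20.0 and 104, 3 of 3 tested called higher) and cholangiocyte genes (86.9 and 825, led by Spp1), and a hepatocyte sum of 187200 in saline and 132600 in NDMA livers with 1 of 5 called lower. Lyve1 of endothelium was higher too. Their part in the result was not tested.

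In WT livers at Week10 limma called 0 of 6 genes, with 0 at an unadjusted p under 0.05 and 0 by edgeR and by DESeq2. The background was as low, with 0% of all genes called lower. Insig1 ran from 42.5 through a median of 53.0 to 124 in 8 saline livers and from 13.7 through 57.5 to 94.6 in 8 NDMA livers, which overlapped. Its log2 fold change was -0.35, that of Hmgcs1 was 0.61 and those of the other 4 lay between -0.01 and 0.16, with a median of 0.11 against -0.03 over all genes. Leaving out 1 liver gave -0.49 to -0.09 for Insig1 and 0.35 to 0.75 for Hmgcs1. Sex and batch coincided at this time as well. Within the batch of males Insig1 stood at 0.288 and within that of females at -0.997. Hmgcs1 stood at 0.127 and 1.095 in the same order. The other 4 lay between -0.23 and -0.03 in males and between 0.14 and 0.55 in females. None of these values was called.

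At Month10 Insig1 was still lower in NDMA livers of Mgmt-/- mice. It ran from 170 through a median of 201 to 322 in 12 saline livers and from 30.0 through 139 to 265 in 13 NDMA livers, with 9 of the 13 below every saline liver. The log2 fold change was -0.80 ± 0.21 (1.74-fold, adjusted p = 0.0109), the 1 of 6 called lower, where 2.99% of all genes were. Cyp51 stood at -0.46 with an adjusted p of 0.0308 but under the fold threshold, and Fdps (-0.54), Hmgcs1 (-0.50), Fdft1 (-0.40) and Sqle (-0.13) were not called; the median was -0.48 against -0.01 over all genes. Among the other enzymes Mvd (-1.06), Tm7sf2 (-0.79), Dhcr7 (-0.79) and Sc5d (-0.64) fell, 4 of 16. Srebf1 (-0.87), Stard4 (-0.80) and Scap (-0.63) fell and Npc2 rose by 0.61, Srebf1 without a call when libraries were scaled to the same total, and Insig2 stood at -0.17. Macrophage genes (2 of 7) and stellate and fibroblast genes (3 of 5) were called higher in the same NDMA livers, as were Spp1 of cholangiocytes (2.48), Top2a of dividing cells (1.84), Lyve1 of endothelium (1.46) and Apoa1 of hepatocytes (0.58). Their part in the result was not tested. In WT livers at Month10 limma called 0 of 6 (2 at an unadjusted p under 0.05, 0 by edgeR and 0 by DESeq2, and 0% of all genes lower). There Insig1 ran from 146 through 253 to 449 in 10 saline livers and from 6.50 through 188 to 305 in 13 NDMA livers, with a log2 fold change of -0.77 (adjusted p = 0.629), and the median of the 6 was -0.50 against -0.06.

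Whether the response to NDMA differed between genotypes was tested directly, as a genotype by treatment term in edgeR on the recovered reads. At Day2, Day5 and Week10 the genotypes shared no batch, so a difference between genotypes cannot be told apart from one between batches, although each batch held both treatments. Insig1 at Week10 was the single call among the members. Its response was lower in Mgmt-/- than in WT livers, with a difference of -1.504 on the log2 scale (adjusted p = 0.00283), 1 of 6, where 5.79% of all genes were called in either direction. The WT response of Insig1 at Week10 had opposite signs in the batch of males (0.288) and that of females (-0.997), neither called. Hsd17b7 (-1.22), Tm7sf2 (-0.90), Stard4 (-1.32), Srebf1 (-2.17), Scap (-1.53) and Insig2 (1.59) differed as well at Week10, and so did Thrsp (-3.68), Fasn (-1.55) and Cyp27a1 (-0.85). Markers of other cells differed too, among them Col1a1 (2.80), Spp1 (2.60), Top2a (2.44), Lyz2 (1.74) and Serpina1c (-1.18), and their part in the result was not tested. Cyp51 (-0.83, adjusted p = 0.0687), Fdps (-1.06, 0.125), Hmgcs1 (-0.98, 0.168), Fdft1 (-0.62) and Sqle (-0.30) did not pass. At Day5, when NDMA and saline livers lay furthest apart in these genes, 0 of 6 passed (2.15% of all genes), with 0 at an unadjusted p under 0.05 and 0 by limma. The differences between genotypes ran from -1.89 (Fdft1) to -0.54 (Hmgcs1). At Day1, Day2 and Month10 edgeR called 0 of 5, 0 of 6 and 0 of 6, where 0.00963%, 3.94% and 1.53% of all genes were called. The counts at an unadjusted p under 0.05 were 1, 3 and 1, and limma called 0 at each. At Day2 the differences were the largest, from -1.86 for Insig1 to -2.91 for Fdps, without passing the adjustment. They include the high saline livers of Mgmt-/- mice, of which the top ones held 999.5 and 432.2 units of Fdps. The Mgmt-/- NDMA livers had a mean of 16.4 units of Fdps. Insig1 and Sqle had Mgmt-/- NDMA means of 1.77 and 1.42 units, so their differences are descriptions.

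Whether the response changed with time was tested within each genotype by an F test in limma over the treatment by time terms. In WT livers 5 of 6 genes passed (6.87% of all genes) and in Mgmt-/- livers 5 of 6 passed (11.8% of all genes). Both counts include Sqle, which was under 5 units in NDMA pups and was tested through its adult and saline livers. The counts are descriptions to that extent. Insig1 was the exception in both, with an adjusted p of 0.137 and 0.0512. Its log2 fold change in Mgmt-/- livers was below 0 at all 5 times, at -1.15, -2.07, -2.81, -1.63 and -0.80. At the 3 early times its NDMA mean was under 5 units and it was tested through its saline livers, so those calls are descriptions. It was also called at Week10 and Month10. Hmgcs1 was called at the 3 early times, at -1.24, -2.59 and -3.27, and stood uncalled at -0.26 and -0.50 in adult livers.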

How the data were processed

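Liver RNA of 213 mice was analysed from 2 tables, 1 per genotype. One further Mgmt-/- saline sample of Month10 was not analysed here. The authors used STAR to map the 3' digital gene expression reads to GRCm38 (mm10) and ESAT to count reads at each gene, and scaled the counts by DESeq2 size factors within each genotype, so that the deposited values are a signal, normalized counts that are not on 1 scale between the tables. Tool versions are not given in the sources used here. Values of 1 gene are not divided by transcript length. Whole reads were recovered in 209 of the 213 columns, with 100% of their values within 0.1 of a whole number.

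Groups were taken from the labels. NDMA was compared with saline within each genotype and time by limma 3.58.1 (R 4.3.3) on log2(value + 1). The model held treatment, sex and batch. Genes whose mean was under 5 were dropped, and p-values were adjusted over all the others by the Benjamini-Hochberg method. Fold changes on this scale understate those of low genes. Calls needed an adjusted p below 0.05 and an absolute log2 fold change above 0.58. Saline livers were compared between times in the same way. The recovered reads were used to test genotype by treatment by the quasi-likelihood method of edgeR 4.0.16 with TMM scaling and without a fold threshold, and a limma F test was used for treatment by time. The steps were tested on simulated data.

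The 7 genes were named in every comparison, and in comparisons of NDMA with saline so were called genes from lists of 121 genes, a few fixed regulators and up to 3 more per list by size. Other comparisons give list genes as counts or examples. Some genes of the lists count in the totals and are not reported here by name. Members and lists were chosen with earlier results of these data known. Alternatives were other pseudocounts, filters, scalings and terms, edgeR and DESeq2 1.42.0, single batches, and fits without single livers, without livers of under 300000 reads or with every library kept. Nothing in the labels names litters, and the time of day at collection is not given in the sources used here. Food was freely available to the mice. Promoters were taken from RefSeq and gene positions from the GRCm38 annotation. Figures were drawn with matplotlib 3.10.9.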

Additional observations from a re-analysis of the deposited data

Results flagged for a closer look

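Among 78 sets of values of 1 gene in 1 group, 11 held a liver far from the others by Dixon's test on values before the log. The rate of about 1 in 20 by chance holds for normal values in separate sets. Here the same livers recur across genes and the values were not tested for normality, so the count of 11 is a description. In Mgmt-/- saline livers at Day2 a single male was highest in 4 genes, with 3518 units of Hmgcs1 (next 1487), 203.7 of Sqle (82.63), 999.5 of Fdps (432.2) and 796.7 of Fdft1 (344.5). In Mgmt-/- livers at Week10 a saline male held 242.2 units of Insig1 (next 118.3) and an NDMA male 382.6 of Fdps (193.3). In WT NDMA livers the far value came from the female library of under 300000 reads, with 84.14 units of Hmgcs1 (next 44.35) and 94.66 of Fdps (43.67) at Day2, and 1170 of Hmgcs1 (499.1) and 2012 of Fdps (979.9) at Week10. A WT saline male at Day5 held 1312 units of Hmgcs1 (next 564).

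The response of Insig1 to NDMA at Week10 differed between genotypes by -1.504 on the log2 scale (Mgmt-/- minus WT, edgeR adjusted p = 0.002826). The response differed between times by the limma F test for 5 genes in each genotype. Sqle among them was tested through its adult and saline livers, and its values are descriptions. In WT livers F was 10.99 for Cyp51 (adjusted p = 5.081e-05), 9.422 for Hmgcs1 (0.0002531), 9.115 for Fdps (0.000355), 6.598 for Sqle (0.004082) and 5.971 for Fdft1 (0.008169). In Mgmt-/- livers F was 10.14 for Hmgcs1 (adjusted p = 4.869e-05), 9.886 for Cyp51 (6.406e-05), 8.01 for Fdft1 (0.0005338), 7.893 for Sqle (0.00061) and 7.775 for Fdps (0.0006986).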

How the results depend on the processing

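The 41 calls on single members kept their direction under every alternative run, and of 593 values 511 kept the call and 82 lost it. Low read counts limit Idi1 throughout, Sqle in pups, and Insig1 in WT livers at Day1 and in Mgmt-/- pups given NDMA. Counts of members called that moved by over 1.5 times are given here, and their causes were not tested. With edgeR the count was 2 in WT at Day1 (1 by limma), 2 in WT at Day2 (0), 6 in Mgmt-/- at Day2 (2), and in Mgmt-/- saline livers 3 from Day1 to Day2 (0), 1 from Week10 to Month10 (2) and 1 between adults and pups (3). With DESeq2 it was 2 in WT at Day1, 1 in WT at Day2 and 6 in Mgmt-/- at Day2. Within single batches it was 0 (200803Eng) in WT at Day1, 1 (200710Eng) in WT at Day2, 0 (200724Eng) in WT at Day5 and 1 (200803Eng) in Mgmt-/- at Day1. Without livers of under 300000 reads it was 1 in WT at Day2. With no filter it was 1 in WT at Day5 (4) and 1 in Mgmt-/- at Week10 (2), and with a mean of at least 20 it was 1 in Mgmt-/- at Day1 and 1 at Day2, where fewer genes were tested. With treatment as the only term it was 1 in WT at Day5 and 1 in Mgmt-/- at Week10, and a pseudocount of 0.5 or scaling to the same total each gave 1 at Week10. Without the fold threshold it was 2 in Mgmt-/- at Month10 (1). With time as the only term saline livers gave 1 in WT from Day1 to Day2 (0), 1 in Mgmt-/- from Day5 to Week10 (0) and 6 between Mgmt-/- adults and pups (3). Without the livers whose reads could not be recovered the step from Day2 to Day5 in WT gave 1 (6), and with all libraries kept the step from Week10 to Month10 in Mgmt-/- gave 1 (2). Leaving out 1 liver at a time gave 0 to 1 in WT at Day2, 1 to 6 at Day5 and 0 to 0 at Week10, and in Mgmt-/- livers 1 to 2 at Day2, 5 to 6 at Day5 and 1 to 3 at Week10. The 6 in WT came without the saline female lowest in Hmgcs1, and the 1 in Mgmt-/- at Day2 without the saline male highest in it. No paired analysis was possible because the labels give the groups no shared replicate numbers.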

Other observations

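In adult Mgmt-/- livers several of the fatty acid genes driven by SREBP1 were called lower after NDMA. Whether they differed from the cholesterol enzymes was not tested. At Month10, 8 of 12 fell, with a median log2 fold change of -0.81: Me1, which supplies NADPH, by 1.78, Acss2, which activates acetate, by 1.19, Fasn, the fatty acid synthase, by 1.18, Thrsp by 0.94 and Acly, which makes cytosolic acetyl-CoA, by 0.79, together with Acacb, Elovl6 and Fads2. At Week10, 5 of 12 fell, with the same median of -0.81. Me1 had gone the other way at Day1, when it rose by 1.32.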
